A study of Homo sapiens with 18 samples.

Results

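DNA replication and S-phase genes were followed in a pair of HCC1937 breast cancer lines before and during exposure to olaparib. The set held 48 genes, all protein-coding, chosen by name for their part in copying DNA, out of 35044 genes counted in all. The choice was made with earlier results of these data known. All 48 passed the filter on low counts that left 18335 genes for testing. RNA from 18 libraries was sequenced, with 3 libraries in each of 6 groups. HCC1937-EV, labeled WT for genotype and described in the study as the BRCA1-mutated line with an empty vector, and HCC1937-OE-BRCA1, labeled for BRCA1 overexpression and described as that line with wild-type BRCA1, were each collected at 0 h, 12 h and 24 h of olaparib, a PARP inhibitor. In the labels the 0 h libraries also carry olaparib as their treatment, with 0 as the time in their titles. HCC1937 is an established line from a breast carcinoma, each arm is a single engineered line (whether a clone or a pool is not given in the sources used here), and nothing in the labels says that the 3 libraries of a group came from separate cultures, so the p-values measure only the spread between these libraries. In cultures of this kind, fewer cells in S phase and less RNA per cell cannot be told apart.

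Replication starts with licensing in G1, when the origin recognition complex (ORC), CDC6 and CDT1 load the ring of MCM2 to MCM7 onto DNA. In S phase CDC45, the GINS complex and MCM10 turn that ring into an active helicase, polymerase alpha with primase starts each strand, polymerases delta and epsilon extend it on the sliding clamp PCNA, and FEN1 and LIG1 join the lagging-strand pieces. Most of these genes are transcribed at the G1/S border under E2F factors, which the retinoblastoma family holds in check until cyclin E-dependent kinase releases them. PARP inhibitors trap PARP1 on DNA and leave lesions that replication forks meet, and BRCA1 acts in their repair and in fork protection.

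The libraries held between 15081973 and 17571922 counts, of which the 48 genes took between 0.592% and 0.746%. BRCA1 itself stood at 126, 111 and 117 CPM (counts scaled to library size) in HCC1937-EV at 0 h, at 118, 117 and 94.8 CPM at 12 h and at 90.9, 93.1 and 99.5 CPM at 24 h. The libraries labeled HCC1937-OE-BRCA1 held 166, 122 and 127 CPM before olaparib, 114, 130 and 126 CPM after 12 h and 155, 159 and 169 CPM after 24 h. The groups at 0 h overlapped, and the difference of 0.24 ± 0.11 on the log2 scale (SE, adjusted p = 0.0654) did not pass the test, while with an offset for GC content and gene length it was 0.42 and passed (adjusted p = 2.94e-07). The lines stood far apart in other genes, with 7232 of the 18335 tested genes higher and 6098 lower in HCC1937-OE-BRCA1 at 0 h. EPCAM, an epithelial adhesion molecule, lay between 0 and 0.0617 CPM in the 9 libraries labeled HCC1937-EV against 252 to 352 CPM in the 9 labeled HCC1937-OE-BRCA1. KRT5, a basal keratin, lay between 0 and 0.124 CPM against 1062 to 1742 CPM. Over the 11 breast epithelial markers the summed level ran from 2638 to 3329 CPM against 6731 to 10593 CPM, with EPCAM, KRT5 and KRT14 under 1 CPM in every library labeled HCC1937-EV. The 8 fibroblast markers summed to 97.6 to 154 CPM in HCC1937-EV, with COL1A1 at 89.0 to 144 CPM, and to 7.33 to 12.9 CPM in HCC1937-OE-BRCA1. The 5 leukocyte markers summed to 1.28 to 2.65 CPM, with PTPRC at 0 in every HCC1937-EV library, and to 33.9 to 86.8 CPM, with CD14 at 31.5 to 85.9 CPM in the latter, and the 4 endothelial markers to 1.11 to 3.07 CPM and to 17.4 to 27.01 CPM. Whether both arms come from 1 parental line was not tested, so every value set between them compares the libraries as labeled, and the part of BRCA1 cannot be told apart from the other differences between the arms. Contrasts between times within a line do not cross them. The share of counts from mitochondrial genes ran from 7.10% to 8.33% in HCC1937-EV at 0 h and from 5.80% to 5.86% at 24 h, and from 4.99% to 5.66% and 5.77% to 6.28% in HCC1937-OE-BRCA1, without overlap in either line, and its part in the 24 h changes was not tested.

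The promoters of the genes whose response differed between the lines are shown first, because G1/S transcription is known to run through sequence elements near the start site. RefSeq windows of 250 bases before to 50 bases after a start site (GRCh38.p14) were found for 41 of the 48 genes. They were searched on both strands for the E2F sites TTTGGCGC, TTTCCCGC and TTTCGCGC, the CCAAT box and the cell cycle homology region TTTGAA. Some genes have several windows, among them PCNA and TK1 with 2 each, and the one with the most matches is printed below. An E2F site was present for 22 of the 41 genes (53.7%), against 3.3% of all 27305 genes with a window. CCAAT was present for 25 (61.0%), against 39.7% of all genes, and TTTGAA for RRM1 and UNG (4.88%, against 18.2%). Below stand the 5 genes whose 24 h response differed between the lines and whose window holds an E2F site, with TK1, whose response differed in the other direction, as a sixth. Sequences run 5′ to 3′ on the strand of the gene, with capitals for the letters of a match to either an E2F site or CCAAT on either strand.
CDC6 (chr17:40287629-40287928, plus strand): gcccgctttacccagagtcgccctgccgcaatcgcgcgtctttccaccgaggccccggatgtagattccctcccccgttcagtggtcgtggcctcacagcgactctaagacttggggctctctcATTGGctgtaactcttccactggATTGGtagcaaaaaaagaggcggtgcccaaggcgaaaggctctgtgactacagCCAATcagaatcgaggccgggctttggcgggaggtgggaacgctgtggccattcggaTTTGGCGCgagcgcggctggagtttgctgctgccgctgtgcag
DTL (chr1:212035498-212035797, plus strand): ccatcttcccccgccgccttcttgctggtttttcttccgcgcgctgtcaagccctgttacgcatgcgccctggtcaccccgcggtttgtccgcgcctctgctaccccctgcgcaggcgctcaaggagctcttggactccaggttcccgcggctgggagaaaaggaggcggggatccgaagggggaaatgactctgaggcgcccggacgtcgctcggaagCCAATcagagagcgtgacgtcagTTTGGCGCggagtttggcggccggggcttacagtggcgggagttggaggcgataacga
MCM6 (chr2:135876394-135876693, minus strand): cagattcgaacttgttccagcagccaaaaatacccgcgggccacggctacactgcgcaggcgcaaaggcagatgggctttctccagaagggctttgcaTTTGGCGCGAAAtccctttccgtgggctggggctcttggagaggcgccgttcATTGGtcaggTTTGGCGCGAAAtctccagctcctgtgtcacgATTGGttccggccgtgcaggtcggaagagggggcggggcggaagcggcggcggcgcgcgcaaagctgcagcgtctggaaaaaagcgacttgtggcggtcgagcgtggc
PCNA (chr20:5126573-5126872, minus strand): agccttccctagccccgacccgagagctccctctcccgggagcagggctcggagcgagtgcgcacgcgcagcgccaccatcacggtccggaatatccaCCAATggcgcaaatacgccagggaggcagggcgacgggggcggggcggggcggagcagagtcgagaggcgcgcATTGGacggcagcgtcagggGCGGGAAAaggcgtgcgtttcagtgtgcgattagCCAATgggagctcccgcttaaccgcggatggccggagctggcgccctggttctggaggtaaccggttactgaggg
POLA1 (chrX:24693668-24693967, plus strand): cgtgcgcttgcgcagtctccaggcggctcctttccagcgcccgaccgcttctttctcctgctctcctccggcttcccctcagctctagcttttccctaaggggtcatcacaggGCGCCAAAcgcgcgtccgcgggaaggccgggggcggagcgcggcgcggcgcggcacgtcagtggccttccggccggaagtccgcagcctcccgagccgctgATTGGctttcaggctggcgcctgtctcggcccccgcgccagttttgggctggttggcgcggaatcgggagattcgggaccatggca
TK1 (chr17:78187003-78187302, minus strand): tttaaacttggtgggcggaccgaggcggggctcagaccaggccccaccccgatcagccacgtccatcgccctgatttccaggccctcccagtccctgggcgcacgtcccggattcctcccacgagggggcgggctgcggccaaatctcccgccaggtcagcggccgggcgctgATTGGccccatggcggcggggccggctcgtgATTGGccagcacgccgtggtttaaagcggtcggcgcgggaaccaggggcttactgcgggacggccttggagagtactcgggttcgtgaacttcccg
DTL and CDC6 carry TTTGGCGC close to the start site, PCNA carries TTTCCCGC on the opposite strand, POLA1 carries TTTGGCGC on the opposite strand, and MCM6 carries a pair of TTTGGCGC sites, each overlapping a TTTCGCGC site on the opposite strand. TK1 carries CCAAT 2 times on the opposite strand and none of the 3 E2F sites in this window. An E2F site was found in 5 of the 13 genes with a window whose 24 h response differed and in 17 of the other 28, and CCAAT in 12 of the 13 and 13 of the 28. A match of letters is a description of the window and not evidence of binding.

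Before olaparib the 48 genes covered a wide range of levels, given here as CPM per kb of exonic length so that genes can be compared. In HCC1937-EV at 0 h PCNA was highest at 128 ± 2.20 (SD, n = 3), followed by MCM3 at 117 ± 3.55, MCM7 at 94.6 ± 3.13 and MCM4 at 89.1 ± 1.38, all parts of the clamp or the helicase ring. E2F2, an activating E2F, was lowest at 1.47 ± 0.0612, below POLA2 (2.31 ± 0.121) and GINS3 (4.10 ± 0.0967). In HCC1937-OE-BRCA1 at 0 h PCNA was again highest at 201 ± 27.2, followed by TK1 at 161 ± 42.0, MCM3 at 102 ± 1.63 and MCM7 at 90.6 ± 17.3. The steps from PCNA to TK1 and from MCM3 to MCM7 in that line were within the sum of their spreads. E2F2 (1.43 ± 0.122), POLA2 (3.65 ± 0.775) and GINS3 (4.54 ± 1.09) again closed the order.

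The lines differed in many of these genes before any drug, in both directions, at shares near or below those of all tested genes. Of the 48 genes, 16 were higher and 16 lower in HCC1937-OE-BRCA1 at 0 h, which is 33.3% each way against 39.4% of all tested genes called higher and 33.3% called lower. The median difference over the 48 genes was 0.01 on the log2 scale, beside 0.11 over all tested genes. The nucleotide supply genes split. TK1, the salvage thymidine kinase, stood at 78.8, 84.1 and 91.8 CPM in HCC1937-EV and at 215, 369 and 313 CPM in HCC1937-OE-BRCA1, a log2 difference of 1.82 ± 0.17 (SE, adjusted p = 3.09e-09). RRM1, the large subunit of ribonucleotide reductase (chr11:4094707-4138876, GRCh38), stood at 396, 345 and 363 CPM against 107, 95.1 and 79.9 CPM, a difference of -1.97 ± 0.11 (adjusted p = 8.65e-13). For RRM1 the groups are far apart in the opposite sense to TK1, while RRM2, the small subunit of the same enzyme, differed by -0.01.

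**Figure D1:**
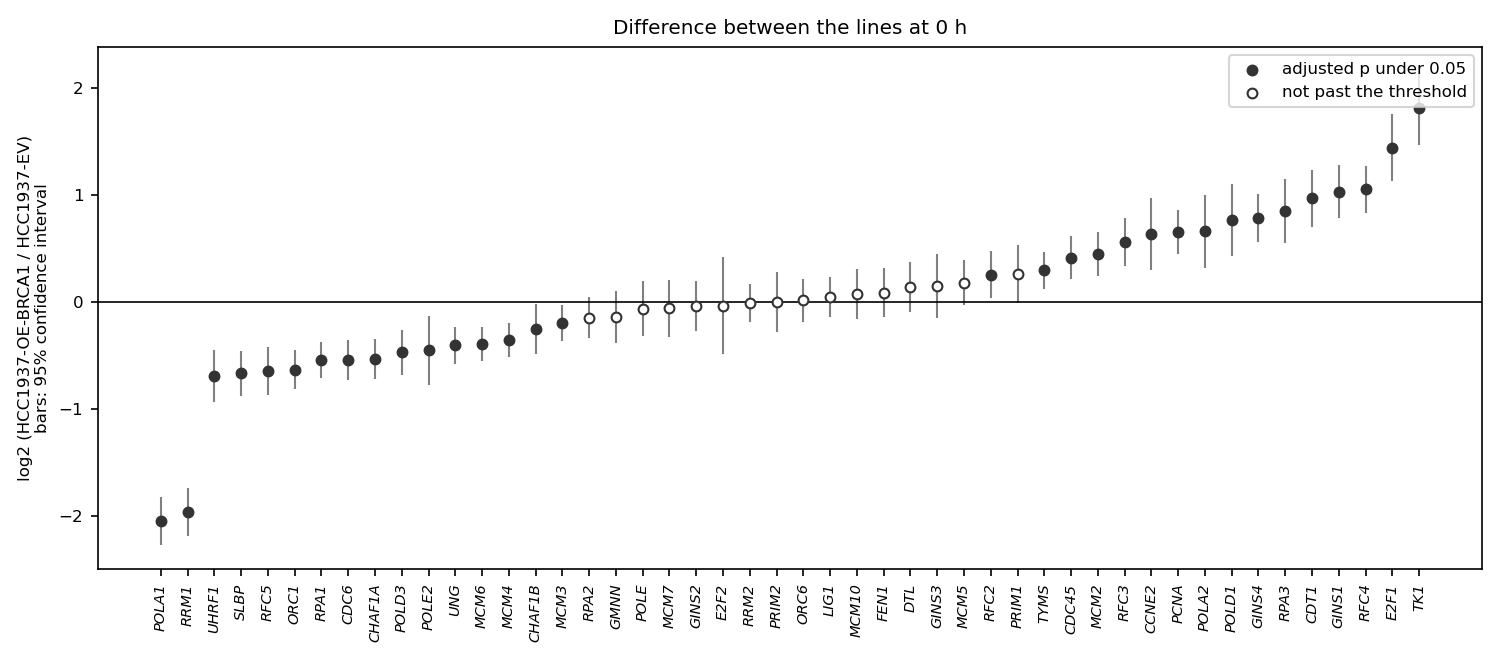
Difference between the lines at 0 h for each of the 48 genes, as log2 of HCC1937-OE-BRCA1 over HCC1937-EV with its 95% confidence interval, ordered by size. Filled points passed an adjusted p of 0.05, and the values run from -2.05 for POLA1 to 1.82 for TK1, with 16 filled points on each side of 0.

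Among the polymerases, POLA1, the catalytic subunit of polymerase alpha, had the largest difference of the set, with 202, 183 and 205 CPM in HCC1937-EV against 55.7, 41.8 and 44.8 CPM (log2 difference -2.05 ± 0.11, adjusted p = 4.53e-13). Its partner POLA2 was higher in HCC1937-OE-BRCA1 by 0.66 and POLD1, the catalytic subunit of polymerase delta, by 0.77, while POLD3 and POLE2, accessory subunits of delta and epsilon, were lower (-0.47 and -0.46). E2F1, the best known activating E2F, stood at 64.4, 65.0 and 76.5 CPM against 143, 214 and 203 CPM, a difference of 1.44 ± 0.15 (adjusted p = 2.11e-08), and cyclin E2 (CCNE2) was higher by 0.63. Of the genes of chromatin and histone supply, UHRF1, which keeps DNA methylation at forks (-0.69), SLBP, which binds histone mRNA (-0.67), and the CAF-1 subunit CHAF1A (-0.53) were lower in HCC1937-OE-BRCA1. The other CAF-1 subunit, CHAF1B (-0.26, adjusted p = 0.0461), lost its call under each of the 7 alternatives that kept all 6 libraries and in 5 of the 6 refits without a library. Of the clamp and its loader, RFC4 (1.05), PCNA (0.65), RFC3 (0.56) and RFC2 (0.25) were higher and RFC5 was lower (-0.65). GINS1 (1.03), GINS4 (0.79) and CDC45 (0.41) were higher, and so were CDT1 (0.97), RPA3 (0.85), MCM2 (0.45) and TYMS (0.30). ORC1 (-0.64), CDC6 (-0.55), RPA1 (-0.55), UNG (-0.41), MCM6 (-0.40), MCM4 (-0.36) and MCM3 (-0.20) were lower. Of the 32 calls, 28 held in each of the 6 refits without a library, all but those of CHAF1B, MCM3, POLE2 and RFC2.

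At 12 h of olaparib none of the 48 genes passed the test in either line. In HCC1937-EV edgeR called 0 of 48, in a comparison where it called 0.0436% of all tested genes. An unadjusted p under 0.05 was found for 11 of the 48 and for 2963 of all 18335. DESeq2 called 3 (CCNE2, MCM4 and MCM6), beside 208 higher and 144 lower among the 10585 genes it gave an adjusted p. The largest difference was that of CCNE2, which stood at 22.7, 18.2 and 19.98 CPM at 0 h and at 15.1, 16.8 and 9.23 CPM at 12 h (log2 difference -0.57, adjusted p = 0.155). In HCC1937-OE-BRCA1 edgeR called 0 of 48, where it called 2.31% of all tested genes (1.7% higher and 0.605% lower). An unadjusted p under 0.05 was found for 2 of the 48 and for 2137 of all 18335. DESeq2 called 0 of 48, beside 457 higher and 241 lower among 16018 genes. The median change of the 48 genes was 0.01 and 0.03 in the 2 lines. For the difference of the 12 h changes between the lines edgeR called 0 of 48 and 0.518% of all tested genes. An unadjusted p under 0.05 was found for 6 of the 48 and for 2690 of all 18335. DESeq2 called 3 (CCNE2, MCM4 and ORC1), beside 239 higher and 160 lower among 13303 genes.

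At 24 h of olaparib the genes called in HCC1937-OE-BRCA1 were all higher than at 0 h. Of the 48 genes, edgeR called 13 higher and 0 lower (0 lower also at an unadjusted p under 0.05 and with DESeq2), that is 27.1% rising against 4.71% of all tested genes called higher, with 3.55% called lower. In all, 44 of the 48 changes were positive, with a median of 0.21 on the log2 scale beside 0.02 over all tested genes. Summed over the 48 genes the level went from 6261 ± 259 CPM at 0 h and 6455 ± 157 CPM at 12 h to 7152 ± 76.1 CPM at 24 h (SD, n = 3), while in HCC1937-EV it was 6341 ± 51.5, 6296 ± 284 and 6064 ± 132 CPM. Of the 13 genes, 6 were called in each of the 6 refits that left out 1 library (CCNE2, DTL, ORC1, POLD3, RRM1 and RRM2). The count was 18 without replicate 1 of the 0 h group, 10 without its replicate 2 and 7 without its replicate 3, and 8, 6 and 7 without replicates 1, 2 and 3 of the 24 h group. Fitted on the 6 libraries compared alone, 5 of the 48 genes were called (CCNE2, DTL, ORC1, RRM1 and RRM2). That fit called 474 genes higher and 335 lower of all 16283 it tested.

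**Figure D2:**
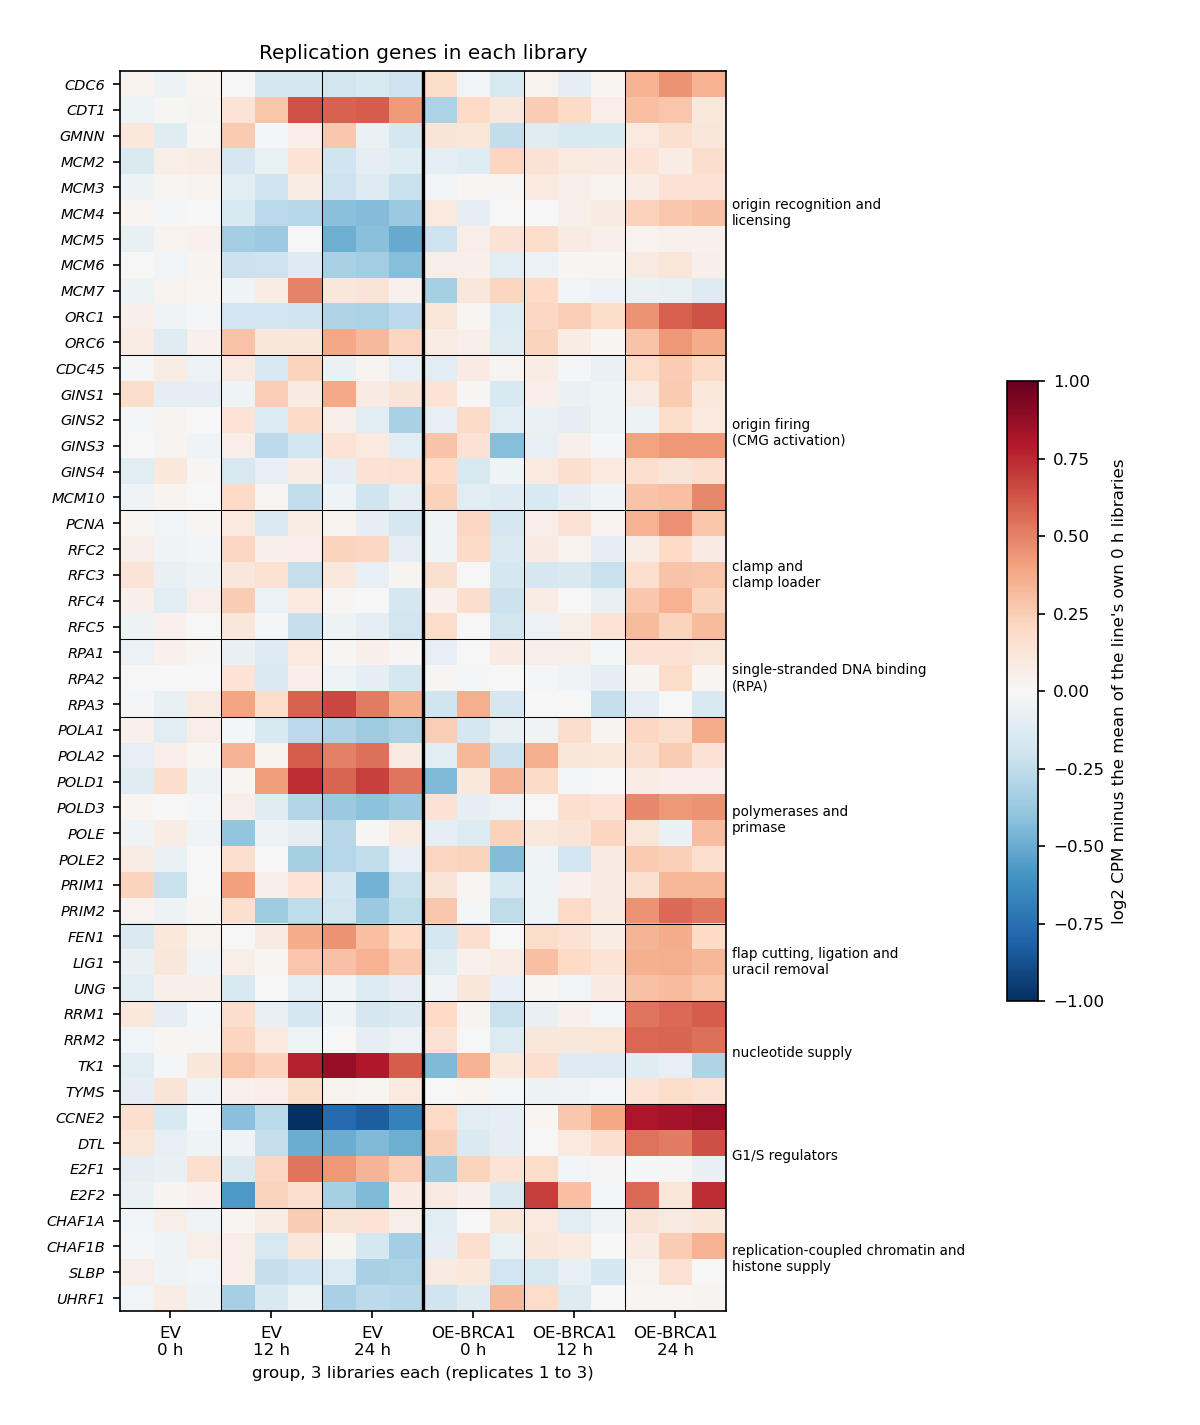
Each of the 48 genes (rows, grouped by role) in each of the 18 libraries (columns, replicates 1 to 3 of each group), as log2 CPM minus the mean of the 0 h libraries of the same line. The color scale ends at -1 and 1. The 3 HCC1937-OE-BRCA1 libraries at 24 h are red in most rows, with library medians of 0.17 to 0.25, and the 3 HCC1937-EV libraries at 24 h are mixed, with medians of -0.10 to -0.04.

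The largest rise in HCC1937-OE-BRCA1 was that of a G1/S regulator. CCNE2, the cyclin E2 that drives entry into S phase (chr8:94879770-94896678), stood at 36.1, 29.02 and 29.5 CPM at 0 h and at 55.0, 56.0 and 57.0 CPM at 24 h. Every 24 h library lay above every 0 h library, a log2 fold change of 0.83 ± 0.16 (SE, adjusted p = 0.00197). DTL, the substrate receptor of the ligase that removes CDT1 in S phase (chr1:212035553-212107400), stood at 197, 150 and 156 CPM and then at 243, 239 and 260 CPM, again without overlap (0.56 ± 0.11, adjusted p = 0.00335). E2F1 (-0.05) and E2F2 (0.49, adjusted p = 0.161) did not pass the test, and E2F2 was counted at 7.05 to 13.0 CPM over these 2 groups.

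Among the licensing genes ORC1, the largest ORC subunit and the one that varies through the cell cycle (chr1:52372829-52404459), stood at 52.6, 49.0 and 44.1 CPM at 0 h and at 66.0, 73.5 and 75.5 CPM at 24 h (0.56 ± 0.09, adjusted p = 0.000328). The groups did not overlap. ORC6 rose by 0.36 and CDC6, whose promoter is printed above, by 0.37 (87.6 to 111 CPM at 0 h and 124 to 134 CPM at 24 h, adjusted p = 0.0142). Of the helicase ring only MCM4 passed the test, at 0.26 ± 0.08 (adjusted p = 0.0386), a call that held in 1 of the 6 refits without a library. The other ring genes had changes of 0.12 (MCM2), 0.12 (MCM3), 0.03 (MCM5), 0.09 (MCM6) and -0.11 (MCM7), and CDT1 and its inhibitor geminin (GMNN) of 0.21 and 0.11, none past the threshold.

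Both subunits of ribonucleotide reductase, which makes deoxyribonucleotides, rose together in HCC1937-OE-BRCA1. RRM2 (chr2:10120698-10131419) stood at 237, 214 and 195 CPM at 0 h, at 232, 233 and 233 CPM at 12 h and at 319, 321 and 314 CPM at 24 h. Its 24 h libraries lay above all 6 earlier ones (0.56 ± 0.09, adjusted p = 0.000225). RRM1 stood at 107, 95.1 and 79.9 CPM at 0 h, at 89.0, 96.2 and 92.9 CPM at 12 h and at 136, 138 and 143 CPM at 24 h (0.56 ± 0.11, adjusted p = 0.00207). RRM1 thus moved between 12 h and 24 h and stayed far below its level in HCC1937-EV. Thymidylate synthase (TYMS) and TK1 did not pass the test (0.16 and -0.20).

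At the fork, PCNA rose by 0.36, PRIM2, the regulatory subunit of primase, by 0.50 and POLD3 by 0.45 (adjusted p = 0.03, 0.0236 and 0.00672). PRIM2 stood at 51.9, 42.4 and 36.0 CPM at 0 h and at 58.8, 63.7 and 61.9 CPM at 24 h. DNA ligase I (LIG1) rose by 0.35 and the uracil glycosylase UNG by 0.29 (adjusted p = 0.021 and 0.0315). Outside the 6 calls named above, the other 7 (CDC6, LIG1, MCM4, ORC6, PCNA, PRIM2 and UNG) each failed in 3 to 5 of the 6 refits without a library. None of the 6 origin firing genes, the 3 RPA genes or the 4 genes of chromatin and histone supply passed the test, although all 6 origin firing genes had positive changes (median 0.18), the highest being GINS3 at 0.39 (adjusted p = 0.0918) and MCM10 at 0.35 (adjusted p = 0.0615). CDC45 (0.21), GINS1 (0.15), GINS2 (0.07) and GINS4 (0.15) had smaller values. The 4 clamp loader genes had changes of 0.11 (RFC2), 0.24 (RFC3), 0.27 (RFC4) and 0.28 (RFC5), and FEN1 one of 0.30 (adjusted p = 0.0956).

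**Figure D3:**
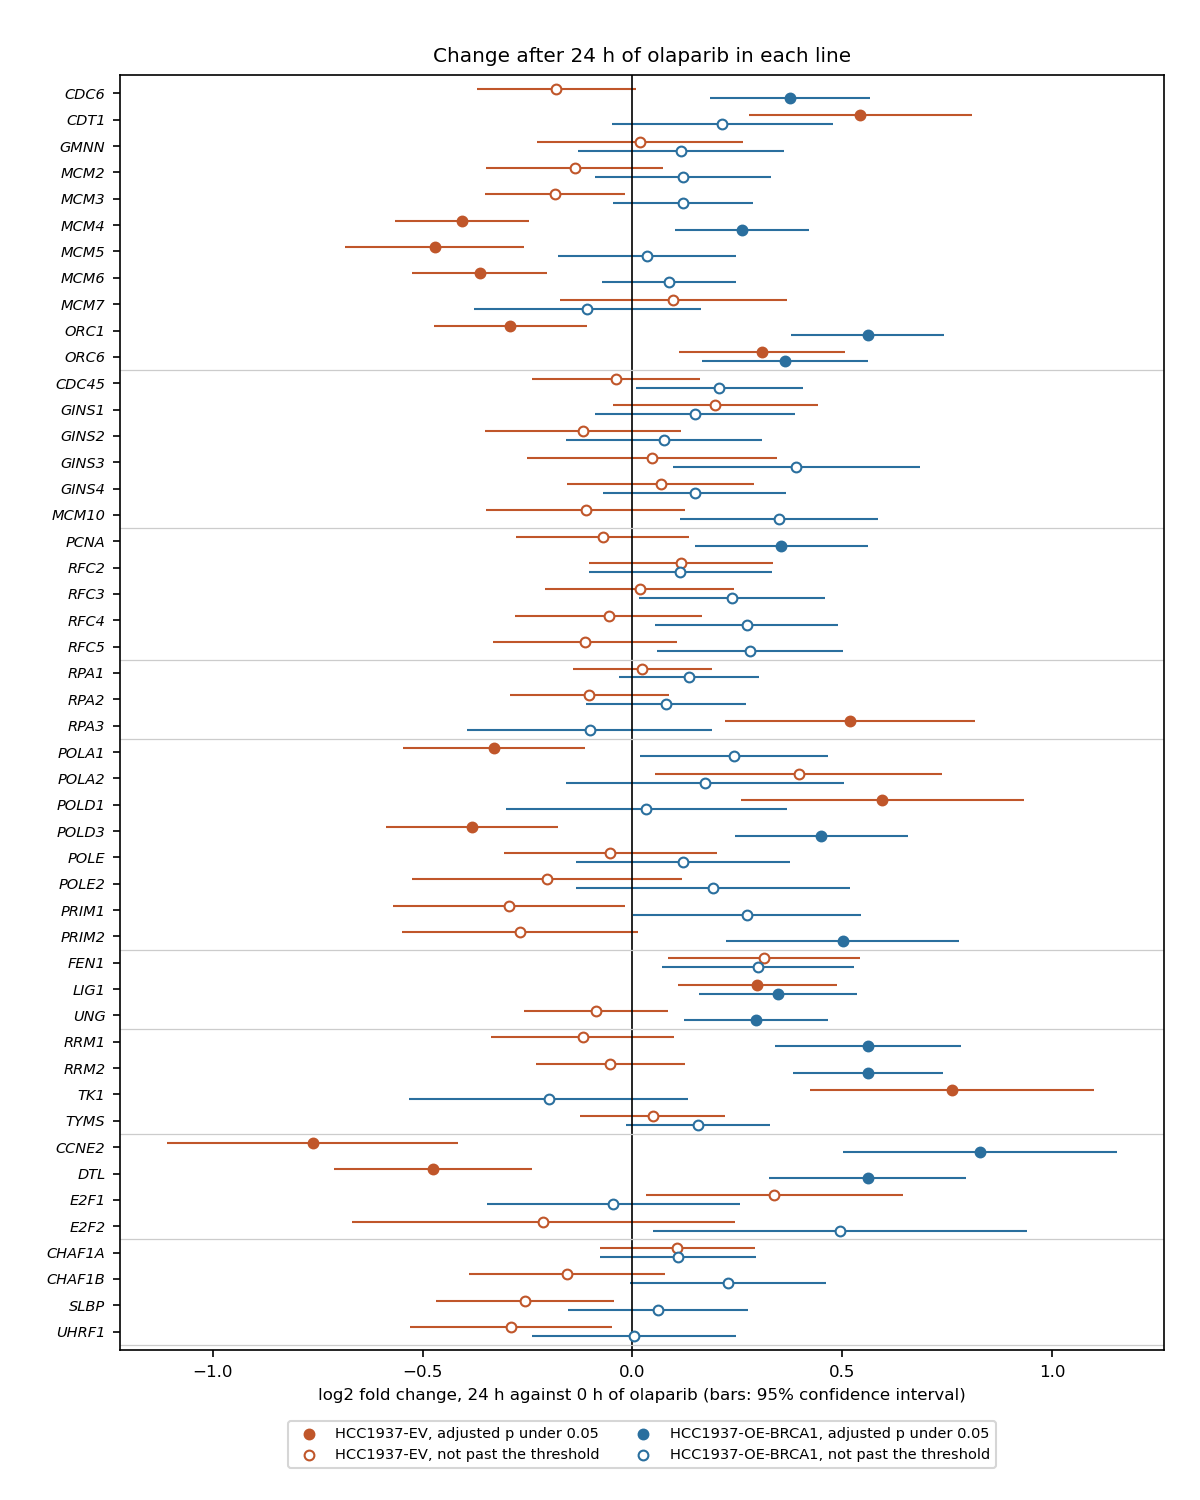
Log2 fold change at 24 h against 0 h with its 95% confidence interval for each of the 48 genes, in HCC1937-EV (orange) and HCC1937-OE-BRCA1 (blue). Filled points passed an adjusted p of 0.05: 13 blue points, all above 0, and 14 orange points, 6 above and 8 below 0.

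In HCC1937-EV at 24 h genes were called in both directions. Of the 48 genes, 6 rose (12.5%, against 8.62% of all tested genes) and 8 fell (16.7%, against 5.12%), with a median of -0.08 beside 0.00 over all tested genes. The genes that fell belonged to licensing, the polymerases and the G1/S regulators. MCM4 (chr8:47960185-47978160) stood at 631, 611 and 622 CPM at 0 h, at 559, 514 and 510 CPM at 12 h and at 465, 461 and 480 CPM at 24 h (-0.41 ± 0.08, adjusted p = 0.00367). MCM5 stood at 209, 225 and 227 CPM at 0 h and at 157, 164 and 155 CPM at 24 h (-0.47 ± 0.10, adjusted p = 0.00771), and MCM6 at 191, 187 and 195 CPM and then at 153, 150 and 142 CPM (-0.36 ± 0.08, adjusted p = 0.00686). These 3 ring subunits were the only calls of the 14 that held in each refit without a library. The remaining ring subunits had changes of -0.14 (MCM2), -0.19 (MCM3) and 0.10 (MCM7), not past the threshold.

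CCNE2 stood at 22.7, 18.2 and 19.98 CPM at 0 h in HCC1937-EV and at 11.8, 11.4 and 12.7 CPM at 24 h, the largest fall of the set (-0.76 ± 0.17, adjusted p = 0.00801). DTL went from 165, 144 and 148 CPM to 108, 112 and 108 CPM (-0.48 ± 0.11, adjusted p = 0.0118). ORC1 (-0.29), POLA1 (-0.33) and POLD3 (-0.38) also fell, ORC1 and POLA1 with calls that were lost in all 6 refits without a library. Of the genes that rose, TK1 (chr17:78174075-78187233) stood at 78.8, 84.1 and 91.8 CPM at 0 h, at 103, 99.3 and 145 CPM at 12 h and at 155, 148 and 129 CPM at 24 h (0.76 ± 0.16, adjusted p = 0.00718). POLD1 rose by 0.60, CDT1 by 0.54, RPA3, the small subunit of the single-strand binding protein, by 0.52, ORC6 by 0.31 and LIG1 by 0.30. The number called was 3, 10 and 8 without replicates 1, 2 and 3 of the 0 h group and 6, 6 and 11 without replicates 1, 2 and 3 of the 24 h group. The genes of origin firing, the clamp and its loader, and chromatin supply did not pass the test in HCC1937-EV, with changes from -0.12 (GINS2) to 0.20 (GINS1), from -0.11 (RFC5) to 0.12 (RFC2) and from -0.29 (UHRF1) to 0.11 (CHAF1A).

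At 24 h 5 of the 48 genes were called in opposite directions in the lines (10.4%, against 1.2% of all tested genes), CCNE2, DTL, MCM4, ORC1 and POLD3. In the same direction were 2 (4.17%, against 0.491%), ORC6 (0.31 in HCC1937-EV and 0.36 in HCC1937-OE-BRCA1) and LIG1 (0.30 and 0.35). These counts rest on single libraries: without replicate 1 of HCC1937-EV at 0 h they were 1 (MCM4) and 0, without replicate 1 of HCC1937-EV at 24 h 2 and 0, and without replicate 2 of that group 3 and 0, each with the calls of the other line as they stand. In the other 9 refits they ran from 4 to 6 and from 0 to 2, and the HCC1937-EV calls of ORC6 and LIG1 each failed in 5 of 6. Another 28 genes were called in neither line. The difference of the 24 h changes was tested directly as an interaction. The 24 h changes share the 0 h libraries with the comparisons above. The difference was positive, with the change higher in HCC1937-OE-BRCA1, for 16 of the 48 genes (33.3%, against 8.16% of all tested genes) and negative for 2 (4.17%, against 11.2%). The median over the 48 genes was 0.30, beside 0.05 over all tested genes.

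The largest difference was that of CCNE2, at 1.59 ± 0.23 on the log2 scale (adjusted p = 0.000228), from a fall in one line and a rise in the other. DTL (1.04 ± 0.16, adjusted p = 0.000433), ORC1 (0.85 ± 0.12, adjusted p = 0.000257), POLD3 (0.83 ± 0.14, adjusted p = 0.000913) and PRIM2 (0.77 ± 0.19, adjusted p = 0.00877) followed. RRM1 (0.68), MCM4 (0.67), RRM2 (0.61), POLA1 (0.57), PRIM1 (0.57), CDC6 (0.56), MCM5 (0.51), MCM10 (0.46), MCM6 (0.45), PCNA (0.43) and UNG (0.38) were also higher in HCC1937-OE-BRCA1. PRIM1, the catalytic subunit of primase, and MCM10 were called in neither line on their own. TK1 was the largest difference the other way (-0.96 ± 0.23, adjusted p = 0.00707), and RPA3 the other (-0.62 ± 0.20, adjusted p = 0.035). Of the 18 calls, 13 held in each of the 12 refits without a library, and the 5 that did not were MCM10, PCNA, PRIM1, RPA3 and UNG. An unadjusted p under 0.05 was found for 25 of the 48 genes, the 18 called among them, and for 6094 of all 18335. Most of the 30 genes not called had 95% intervals that span 0. Examples are FEN1 (-0.34 to 0.31), CHAF1A (-0.26 to 0.26) and ORC6 (-0.23 to 0.33). Of the genes not called, the interval of E2F2 reaches highest (0.07 to 1.34).

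**Figure D4:**
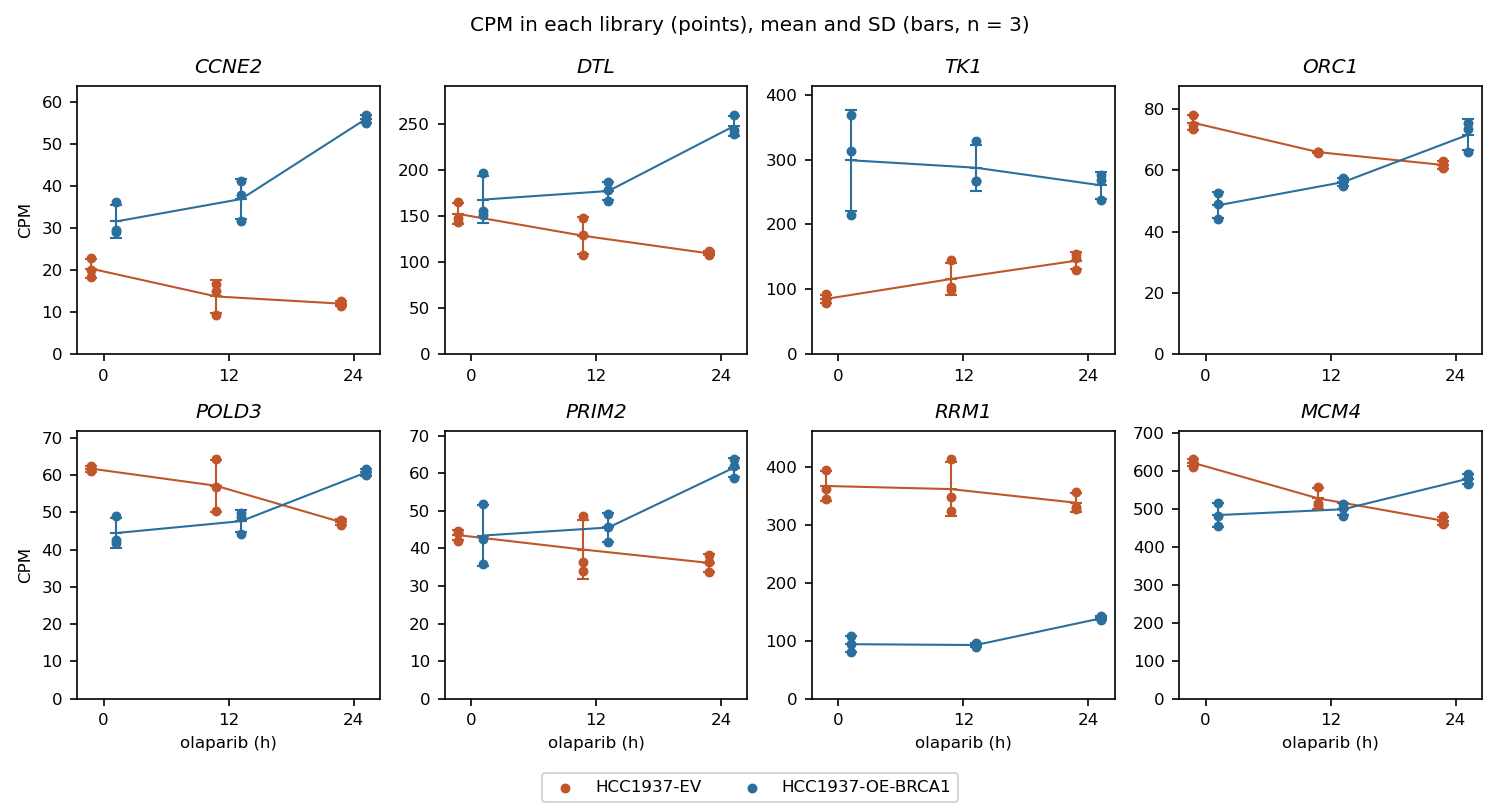
CPM of the 8 genes whose 24 h changes differed most between the lines, by hours of olaparib, with each library as a point and the mean and SD (n = 3) as bars, for HCC1937-EV (orange) and HCC1937-OE-BRCA1 (blue). CCNE2 went from 18.2 to 22.7 down to 11.4 to 12.7 CPM in HCC1937-EV and from 29.02 to 36.1 up to 55.0 to 57.0 CPM in HCC1937-OE-BRCA1, and TK1 went from 78.8 to 91.8 up to 129 to 155 CPM in HCC1937-EV.

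The step from 12 h to 24 h was compared within each line. In HCC1937-OE-BRCA1 7 genes rose between 12 h and 24 h (14.6%, against 0.791% of all tested genes, with 0.862% called lower), with a median of 0.18 over the 48 genes, and edgeR called 0 lower (0 also at an unadjusted p under 0.05 and with DESeq2). The 7 that rose were RRM1 (0.58), DTL (0.48), RRM2 (0.45), MCM10 (0.45), RFC3 (0.43), CDC6 (0.39) and ORC1 (0.35). CCNE2 had the largest value (0.60) and did not pass (adjusted p = 0.053). The count ranged from 0 to 2 over the refits without a library, with at most RRM1 and RRM2 left. It rose to 17 with an offset for GC content and gene length, where 379 of 18076 genes were called higher and 327 lower. In HCC1937-EV edgeR called 0 of 48 over the same step, where it called 0.18% of all tested genes. An unadjusted p under 0.05 was found for 5 of the 48 and for 1686 of all 18335. DESeq2 called 1 (PRIM1), beside 109 higher and 56 lower among 13982 genes.

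The base composition of the genes and of the libraries moved with these changes. The deviation of each library from the mean of its own line was correlated with GC content across genes, with Spearman values of -0.58 to -0.23 in HCC1937-EV at 0 h, -0.59, -0.21 and 0.64 at 12 h and 0.28 to 0.61 at 24 h. In HCC1937-OE-BRCA1 they were -0.58, 0.29 and 0.54 at 0 h, 0.18 to 0.54 at 12 h and -0.44 to -0.28 at 24 h. Replicate 1 of HCC1937-OE-BRCA1 at 0 h thus had the opposite sign to the others of its group. It is part of the baseline of every change from 0 h in that line. Replicate 3 of HCC1937-EV at 12 h also had the opposite sign to the others of its group, and neither difference was tested. Among the 12 h changes of that line edgeR called 0 of the 48 genes and, with an offset for GC content and length, 2. In HCC1937-EV the 6 genes that rose had a median GC content of 59.6% and the 8 that fell one of 43.1%. In HCC1937-OE-BRCA1 the 13 that rose had a median of 45.5%. Over the 48 genes the change at 24 h and the GC content had a Spearman value of 0.44 in HCC1937-EV and -0.52 in HCC1937-OE-BRCA1, given as a description because the points share their libraries. Over 18076 genes the same values were 0.43 and -0.28. With a smooth offset for GC content and length in each library those of the 48 genes became 0.02 and -0.12. The offset is built to remove such a trend, so values near 0 are no separate result.

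**Figure D5:**
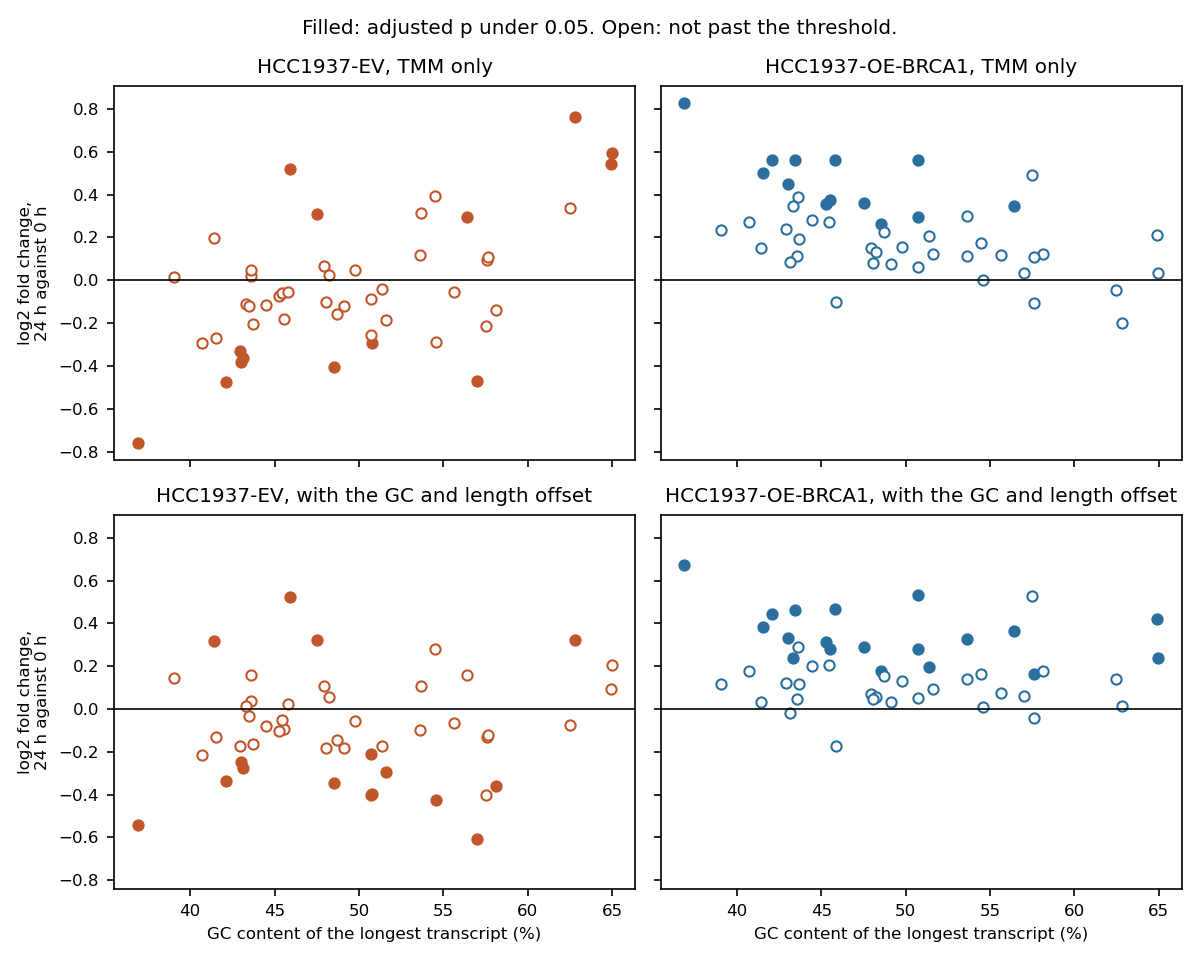
Log2 fold change at 24 h against 0 h for the 48 genes against the GC content of the longest transcript, in HCC1937-EV (left) and HCC1937-OE-BRCA1 (right), without (top) and with (bottom) an offset for GC content and length. The slopes of the top panels have Spearman values of 0.44 and -0.52. In the bottom panels they are near level (0.02 and -0.12), which the offset is built to bring about. Most points of the lower right panel remain above 0.

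With the offset all 13 calls of HCC1937-OE-BRCA1 were kept and 6 were added (CDC45, CDT1, CHAF1A, FEN1, MCM10 and POLD1). CCNE2 then had a change of 0.67, ORC1 of 0.53, RRM2 of 0.47, RRM1 of 0.46 and DTL of 0.44. In HCC1937-EV 10 of the 14 calls were kept, all but those of CDT1 (0.10), LIG1 (0.16), POLA1 (-0.17) and POLD1 (0.20), and 6 were added, 5 of them falls (MCM2, MCM3, SLBP, UHRF1 and UNG) and GINS1 a rise. TK1 then had a change of 0.32 instead of 0.76 in HCC1937-EV and MCM5 one of -0.61. Of the 18 differences between the lines 15 were kept and 8 added, the lost ones being those of MCM6, MCM10 and PRIM1, and the difference of TK1 shrank to -0.31 (adjusted p = 0.0467). The difference of CDT1, -0.33 and not called without the offset, became 0.32 (adjusted p = 0.00733). Over the 18076 genes fitted with the offset, 1243 were called higher and 1828 lower in HCC1937-OE-BRCA1 at 24 h. In HCC1937-EV these counts were 1370 and 1208, and for the difference between the lines 1284 and 2047. The part of composition in the changes without the offset was not tested beyond this.

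Other replication genes, a list of 61 that runs from further ORC subunits to checkpoint and mismatch repair factors, were counted beside the 48. In HCC1937-OE-BRCA1 at 24 h 11 rose (against 4.71% of all tested genes) and 1 fell (1.64%, against 3.55%), with a median of 0.20 and the largest changes in SAMHD1 (0.90), E2F7 (0.72) and FAM111B (0.70). In HCC1937-EV 3 rose (4.92%, against 8.62%) and 9 fell (14.8%, against 5.12%), with a median of -0.18 and the largest changes in cyclin E1 (CCNE1, -0.90, adjusted p = 0.00133), the polymerase epsilon subunit POLE4 (0.67) and MMS22L (-0.64), a factor of fork repair. SAMHD1, a hydrolase that lowers dNTP pools, stood at 195, 186 and 193 CPM in HCC1937-OE-BRCA1 at 0 h, at 351, 365 and 357 CPM at 12 h and at 340, 360 and 373 CPM at 24 h. It was already high at 12 h (0.90, adjusted p = 3.21e-06), when none of the 48 genes had passed the test in that line. The 24 h changes were higher in HCC1937-OE-BRCA1 for 20 of the 61 genes (32.8%, against 8.16%) and lower for 6 (9.84%, against 11.2%), with FAM111B (1.21), POLE4 (-1.14) and E2F7 (1.11) furthest.

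Of 40 genes of G2/M and mitosis, 15 fell in HCC1937-OE-BRCA1 at 12 h (37.5%, against 0.605% of all tested genes) and 13 at 24 h (32.5%, against 3.55%). At 12 h 39 of the 40 changes were negative (median -0.43) and at 24 h 36 (median -0.25). CDC20, the activator of the anaphase-promoting complex, stood at 367, 475 and 460 CPM at 0 h, at 302, 280 and 257 CPM at 12 h and at 221, 215 and 191 CPM at 24 h (-1.05 at 24 h, adjusted p = 4.95e-06), and PLK1 (-0.88) and CCNB1 (-0.71) fell as well. In HCC1937-EV 4 of the 40 rose (against 8.62% of all tested genes) and 5 fell (12.5%, against 5.12%) at 24 h, with a median of 0.03 and the largest changes in CENPE (-0.93), MKI67 (-0.69) and AURKB (0.59). Of the 9 inhibitors of cyclin-dependent kinases and pocket proteins, CDKN1A (p21) rose in HCC1937-OE-BRCA1 at 24 h (0.60, adjusted p = 0.0015) and 5 rose in HCC1937-EV (55.6%, against 8.62%), CDKN1A most (1.07, adjusted p = 6.29e-05), with CDKN1C, CDKN2D, CDKN2A and CDKN2C, all named after their values were seen. CDKN1A stood at 9.44 to 13.1 CPM in HCC1937-EV at 0 h against 66.1 to 79.8 CPM in HCC1937-OE-BRCA1.

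Some values may be uncertain because of neighbors on the genome. The strand setting of the counting is not given in the sources used here, and several of these genes overlap another on the other strand: RRM1 overlaps RRM1-AS1, CCNE2 overlaps INTS8 and NDUFAF6, RPA3 overlaps UMAD1, RFC4 overlaps EIF4A2, MCM7 overlaps AP4M1, TYMS overlaps ENOSF1 and FEN1 overlaps TMEM258. Overlap on the same strand, which no strand setting separates, joins PRIM1 to NACA, FEN1 to FADS2 and CHAF1B to MORC3. RRM2, POLD1 and POLA2 each overlap another protein-coding gene on their own strand as well. DTL, POLA1 and POLD3 hold processed pseudogenes of other genes within their bounds. The overlaps were taken over whole gene bounds, introns included, and overlap of exons was not measured. Whether reads of a partner were counted for these genes was not tested. The 3 RPA genes had changes in HCC1937-OE-BRCA1 at 24 h of 0.13 (RPA1), 0.08 (RPA2) and -0.10 (RPA3), none past the threshold, and POLE, the catalytic subunit of polymerase epsilon, had changes of -0.05 and 0.12 in the 2 lines.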

How the data were processed

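Total RNA from 18 HCC1937 libraries was sequenced. The deposited table holds whole-number counts per gene, which the authors made with HISAT2 and featureCounts on GRCh38 per the labels and methods, with DESeq2 also named. The annotation release and strand setting are not given in the sources used here. Counts of 35044 genes were filtered with edgeR 4.0.16 (filterByExpr, 18335 genes kept), scaled by TMM and fitted with the quasi-likelihood test over 6 group means. Adjusted p is Benjamini-Hochberg over all genes tested, with a threshold of 0.05. CPM uses TMM library sizes, and lengths and coordinates come from GENCODE 29. Libraries held 15081973 to 17571922 counts, and the biological coefficient of variation was 12.9%.

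The alternatives were DESeq2 1.42.0, its size factors, no filter, only the libraries compared, the replicate number as a block, a GC content and length offset (mgcv 1.9.3, 98.6% of genes) and leaving out each library. The members and lists were chosen with earlier results of these data known. All 48 members are named, with full values for those called with the largest changes in each direction. The 3 called genes with the largest changes per comparison are named for the other replication and G2/M lists.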

Additional observations from a re-analysis of the deposited data

Results flagged for a closer look

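The change at 24 h of olaparib differed between the lines, by the interaction term of the edgeR fit, for 18 of the 48 genes. On the log2 scale, as the change in HCC1937-OE-BRCA1 minus that in HCC1937-EV, the difference was 1.59 for CCNE2, 1.04 for DTL, 0.85 for ORC1, 0.83 for POLD3, 0.77 for PRIM2, 0.68 for RRM1, 0.67 for MCM4 and 0.61 for RRM2. It was 0.57 for both POLA1 and PRIM1, 0.56 for CDC6, 0.51 for MCM5, 0.46 for MCM10, 0.45 for MCM6, 0.43 for PCNA and 0.38 for UNG. It was negative for TK1 (-0.96) and RPA3 (-0.62). With the offset for GC content and length TK1 stood at -0.31, CCNE2 at 1.22 and DTL at 0.78, and MCM6 (0.26), MCM10 (0.22) and PRIM1 (0.39) were no longer called. The calls of MCM10, PCNA, PRIM1, RPA3 and UNG each failed in at least 6 of the 12 refits without a library. With 3 libraries in a group, no single library was tested for standing apart.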

How the results depend on the processing

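No gene called among the 48 changed sign under any alternative run. Between the lines at 0 h the count of 32 ran from 29 to 36. It was 36 with the offset, where 7503 genes were called higher and 6267 lower of 18076. It was 29 with no filter, where the counts over all genes were 8113 and 6556 of 35044. With only the libraries compared it was also 29, beside 6307 and 5489 of 16487. The difference of the 24 h changes of CDT1, not called at -0.33, turned to 0.32 with the GC content and length offset, also with the replicate block added. For HCC1937-EV at 12 h, 3 genes were called with no filter, 2 with the offset and 3 with DESeq2. Over all genes these settings called 608 higher and 210 lower of 35044, 67 and 79 of 18076, and 208 and 144 of 10585. For HCC1937-OE-BRCA1 at 24 h the count of 13 became 7 with no filter and 5 with only the libraries compared. The latter setting took the 14 of HCC1937-EV to 21. Over all genes, no filter gave 770 higher and 1367 lower of 35044 in HCC1937-OE-BRCA1. With only the libraries compared, the counts were 474 and 335 of 16283 there and 2777 and 2396 of 14825 in HCC1937-EV. Between 12 h and 24 h HCC1937-EV gave 1 with the offset, 2 with the replicate block and offset and 1 with DESeq2. Over all genes these settings gave 112 higher and 89 lower of 18076, 95 and 92 of 18076, and 109 and 56 of 13982. The 7 of HCC1937-OE-BRCA1 became 2 with the replicate block, 17 with the offset and 14 with both. They became 19 with only the libraries compared and 12 with DESeq2. Over all genes that step in HCC1937-OE-BRCA1 gave 145 higher and 158 lower of 18335 in the main fit. The counts were 91 and 112 with the block, 379 and 327 of 18076 with the offset and 322 and 282 with both. With only the libraries compared they were 1434 and 1774 of 16332, and with DESeq2 383 and 461 of 13982. The 12 h changes differed for 1 gene with no filter, 2 with the offset, 1 with the replicate block and offset and 3 with DESeq2. Over all genes these settings gave 253 higher and 391 lower of 35044, 272 and 358 of 18076, 243 and 315 of 18076, and 239 and 160 of 13303. Leaving out 1 library gave 3 to 11 for HCC1937-EV at 24 h, 6 to 18 for HCC1937-OE-BRCA1 at 24 h, 0 to 2 for its step from 12 h to 24 h and 0 to 3 for the difference at 12 h, the 3 arising when the first 0 h library of HCC1937-OE-BRCA1 was dropped. Counts over all genes are not given for the refits without a library. The cause of these moves was not tested. Libraries of the same number did not deviate together in every pair, so the numbers were not taken as pairs. The replicate block gave 11, 11 and 17 calls for the 24 h changes in HCC1937-EV, in HCC1937-OE-BRCA1 and their difference. Over all 18335 genes the block gave 1277 higher and 681 lower, 701 and 478, and 1329 and 1831.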
